A study of Mus musculus with 6 samples.

Results

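Pre-mRNA splicing factors of the SR protein and hnRNP families were compared between proliferating and differentiated C2C12 cells, a mouse myoblast line derived from satellite cells of skeletal muscle. The genes were chosen by name. They are those whose platform annotation symbol is Srsf followed by a number or begins with Hnrnp, together with Tra2a, Tra2b, U2af1, U2af2, Sf3b1 and Sf1. Of 18193 genes with a probe set of their own on the array, 35 met this rule, with 113 of the 45037 probe sets. The 35 genes are 10 SR proteins, 2 Tra2 proteins, 4 factors of the 3′ splice site and 19 hnRNPs. Srsf7 had no probe set here, and the 4 probe sets of Hnrnpa3 are shared with another gene, so neither was analysed here. The proliferating cultures were kept in 20% serum, and the differentiated cultures were taken on day 6 in 2% horse serum. There were 3 RNA samples per group and 1 Affymetrix mouse genome array per sample. Each RNA sample was made from pooled culture plates, and the pools were combined again before hybridization, and the arrays of a group therefore differ as pools do, not as single cultures would. For day 6 the methods give only a lower bound on the share of nuclei in multinucleated cells, so the differentiated samples can hold mononucleated cells as well.

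SR proteins carry RNA recognition motifs and a tail rich in arginine and serine. They bind exonic enhancers and help U1 snRNP and the U2AF dimer to find the ends of an exon, while hnRNPs coat nascent transcripts and often act as repressors of the same sites. The balance between both families sets the inclusion of many alternative exons, among them exons of muscle genes that change when myoblasts become myotubes. Several SR genes also carry a poison exon, whose inclusion sends their own transcript to nonsense-mediated decay. Arrays of this kind measure the amount of transcript at each probe set, mostly near the 3′ end, and report neither protein nor its phosphorylation.

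The values are linear MAS 5.0 signals, scaled on each array to a trimmed mean of about 250. The median signal was 68.0 to 73.0 on arrays of proliferating cells and 72.3 to 81.4 on those of differentiated cells. Changes are differences of mean log2(signal + 15), differentiated minus proliferating, with their SE (standard error of the limma fit), and a gene was called higher or lower when its brightest probe set had an adjusted p under 0.05 over all probe sets. The brightest of 27 bacterial control probe sets on each array, between 51.9 and 87.0, was taken as background. Markers of muscle differentiation and of proliferation went with the labels. All 8 muscle markers tested were higher on day 6, with myogenin at 172 ± 9.60 and 6854 ± 194 (SD, n = 3 each), and all 5 proliferation markers were lower, with Mki67 at 1782 ± 249 and 115 ± 15.3 (SD, n = 3 each). Of 4 myoblast markers none was lower on day 6. Itga7 was higher, at a log2 change of 1.70, and Myod1 (0.28), Myf5 (-0.10) and Cdh15 (0.14) did not pass. Of 18 markers of leukocytes, endothelium, adipocytes, neurons and glia, and epithelium, none passed the test. Cd68, Epcam and Krt18 were above background on all 6 arrays, and Lyz2, Kdr, Rbfox3, Syt1 and Krt8 on 4 or 5. The other 10, among them Ptprc, Pecam1, Adipoq and Snap25, were above it on at most 2 arrays. Since the cultures were measured in bulk, fewer cells with a transcript and less of it per cell cannot be told apart.

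Transcripts of SR proteins and hnRNPs were lower in differentiated cells almost throughout. Of the 35 genes, 29 were lower, 1 was higher and 5 did not pass, where 9.05% of all 18193 genes were lower and 8.67% were higher. Among the 9326 genes above background on all 6 arrays, which include 34 of the 35, 16.0% were lower and 14.1% were higher. The median log2 change of the 35 genes was -0.58, against 0.06 over all genes and 0.01 over the genes above background. The falls were moderate in size. A change of at least 1.5-fold was reached by 17 of the 29 (6.42% of all genes were lower and 6.67% higher by that much) and 2-fold by 9 (3.07% of all genes). In 30 of the 35 genes all proliferating arrays lay above all differentiated arrays (15.5% of all genes), and in 3 genes, Srsf5, Srsf12 and Hnrnph3, all lay below (18.0% of all genes). The number of lower genes rested on the variance model and on the choice of probe set, at 13 with eBayes without trend and 18 with all probe sets of a gene averaged. Averaging ended the calls of Srsf11, Tra2a, Tra2b, Sf3b1, Hnrnpa1, Hnrnpab, Hnrnpc, Hnrnpd, Hnrnpdl, Hnrnpl and Hnrnpr. With _s_at and _x_at probe sets left out, whose probes can match several transcripts, 25 of the 29 were lower, without Srsf2, Sf1, Hnrnpa1 and Hnrnpll. The fall held under every alternative for 8 genes, Srsf1, Srsf3, Srsf6, Srsf9, Srsf10, Hnrnpa2b1, Hnrnpm and Hnrnpu.

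**Figure D1:**
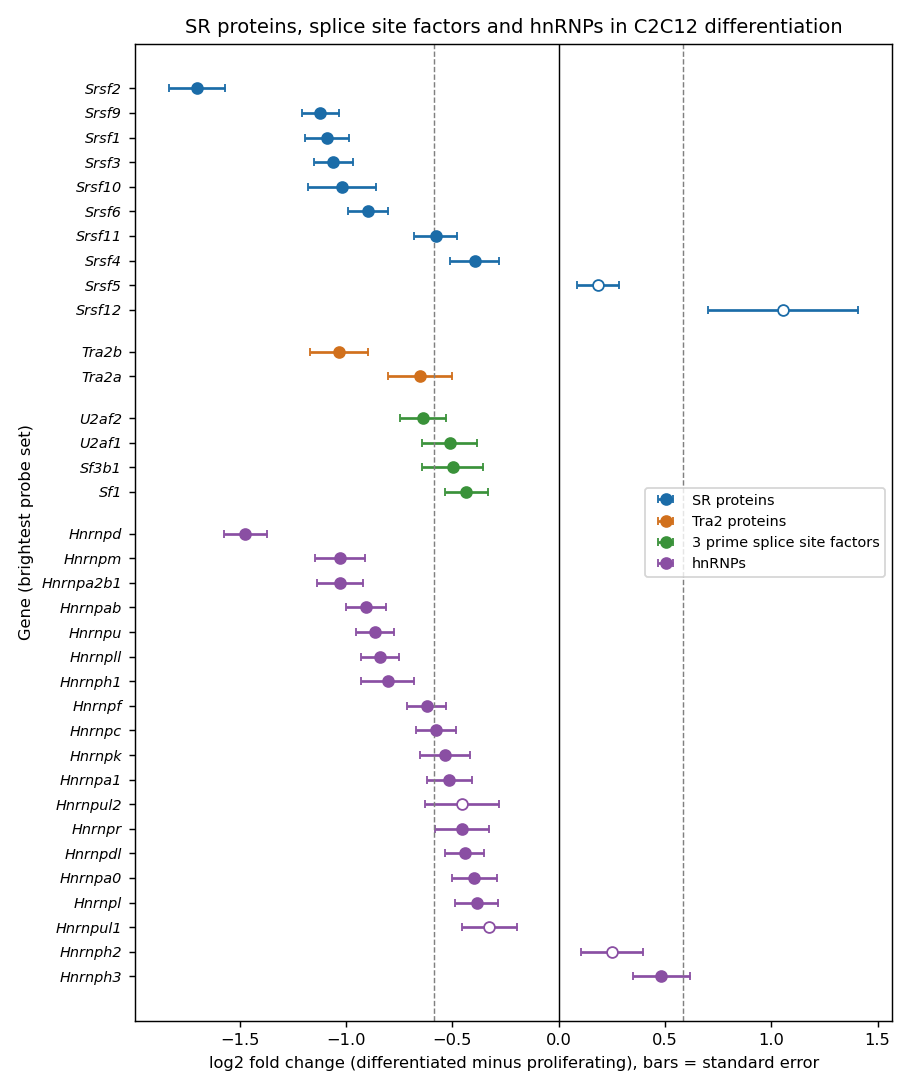
Differentiated minus proliferating signal on the log2 scale (horizontal axis, 3 arrays in each group) for the brightest probe set of each of the 35 genes (vertical axis), with SE. A filled circle stands for an adjusted p under 0.05 and an open circle for a gene that did not pass, and dashed lines mark 1.5-fold. Of the 35 genes 29 lie to the left of 0 and are filled, Srsf2 farthest at -1.70, and Hnrnph3 alone is filled on the right, where the open circle of Srsf12 is a gene at background.

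Of the 10 SR protein genes, 8 were lower and none was higher, with a median log2 change of -0.96. Srsf2 (SC35), a marker of nuclear speckles and an activator of exon inclusion, had signals of 2740, 3261 and 2629 in proliferating cells and of 936, 715 and 985 in differentiated cells. Its groups lay far apart, with a log2 change of -1.70 (SE 0.13, adjusted p = 1.7e-06), or 3.25-fold lower. Srsf9, a short SR protein, went from 2795, 2956 and 2821 to 1273, 1374 and 1273, a log2 change of -1.12 (SE 0.09, adjusted p = 2.3e-06). The arrays of each group were close together, and the differentiated signals were 2.17-fold lower. Srsf1 (SF2/ASF), the founding member of the family, had signals of 3382, 3269 and 4032 in proliferating cells and of 1667, 1565 and 1745 in differentiated cells, a log2 change of -1.09 (SE 0.10, adjusted p = 1.1e-05). For Srsf3 (SRp20), the smallest SR protein, which also links splicing to mRNA export, the values were 2705, 2665 and 2675 against 1209, 1236 and 1400. This is a log2 change of -1.06 (SE 0.09, adjusted p = 5.9e-06), and for both genes every proliferating array was higher than every differentiated one.

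Srsf10 (SRp38), known as a splicing repressor when it loses its phosphates, was dimmer, at 619, 529 and 566 against 310, 217 and 304. The log2 change was -1.02 (SE 0.16, adjusted p = 0.00072). Its other probe sets, dimmer but above background on all 6 arrays, fell by less and did not pass. They were at -0.38, -0.43 and -0.44 (adjusted p = 0.28, 0.22 and 0.43). Srsf6 (SRp55) went from 3466, 3478 and 3326 to 1955, 1894 and 1662, a log2 change of -0.90 (SE 0.09, adjusted p = 2.8e-05). Neither gene had overlapping groups at its brightest probe set. The 2 remaining falls were smaller, at -0.58 for Srsf11 (SE 0.10, adjusted p = 0.0017) and at -0.39 for Srsf4 (SE 0.12, adjusted p = 0.042). Srsf4 (SRp75) was near the threshold and did not pass without proliferating replicate 2 (-0.31) or 3 (-0.40), or without differentiated replicate 1 (-0.43), 2 (-0.35) or 3 (-0.40). Nor did it pass with the regularized test (adjusted p = 0.11), quantile normalization (0.053) or no pseudocount (0.054).

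Srsf5 (SRp40) and Srsf12 were the SR genes that did not pass. Srsf5 was at 5556, 4885 and 5243 in proliferating cells and at 6379, 5591 and 5884 in differentiated cells. All 3 differentiated arrays were above the proliferating ones, by a log2 change of 0.19 (SE 0.10, adjusted p = 0.30), and with quantile normalization Srsf5 passed as higher, at 0.33 (adjusted p = 0.035). Srsf12 lay at background on all 6 arrays, with no signal over 37.0, and no fold is given for it.

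**Figure D2:**
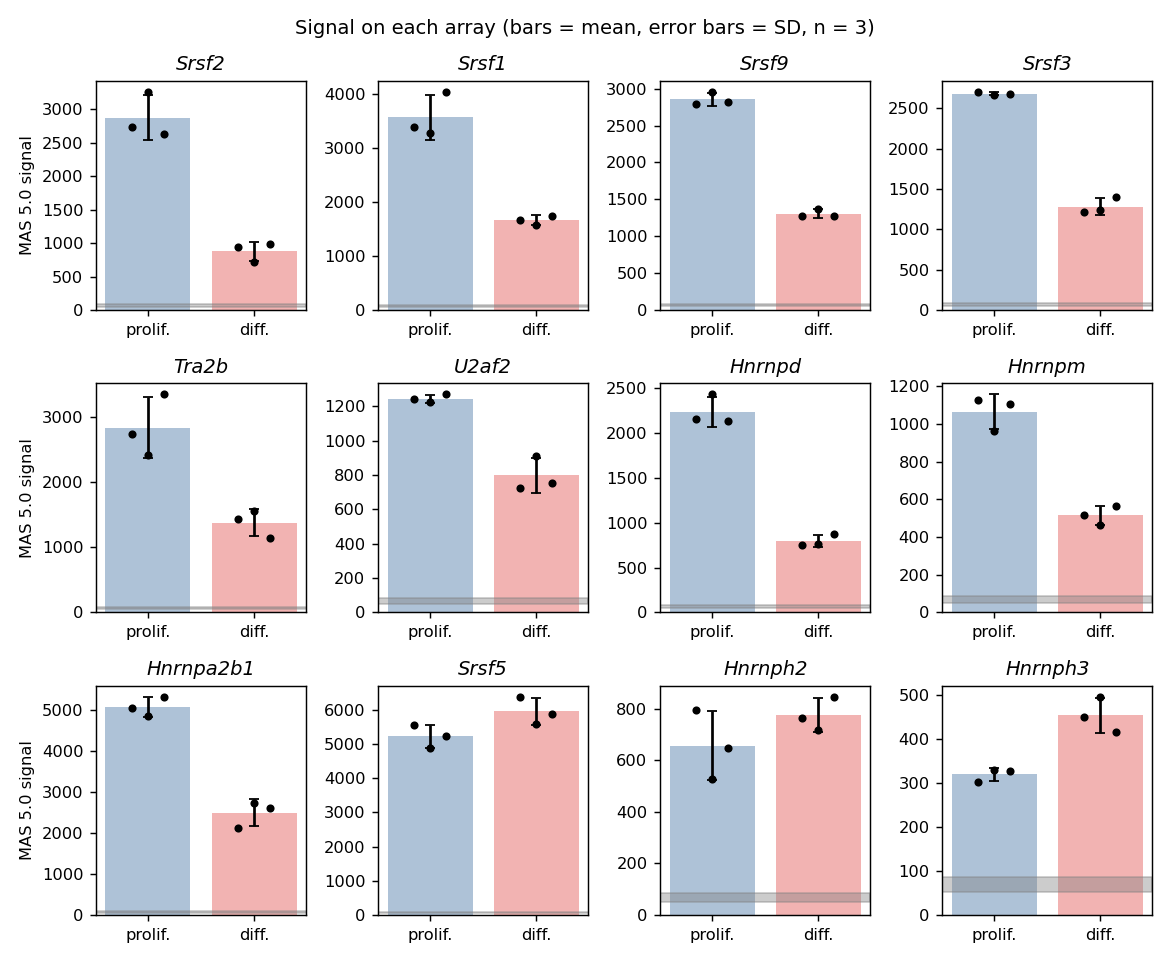
MAS 5.0 signal (vertical axis, linear scale from 0) of the brightest probe set of 12 genes by group. Each bar is a mean with its SD, each circle is 1 of the 3 arrays, and the grey band spans the background of the 6 arrays, 51.9 to 87.0. The groups are apart for Srsf2, Srsf1, Srsf9, Srsf3, Tra2b, U2af2, Hnrnpd, Hnrnpm and Hnrnpa2b1, which are lower on day 6, while Srsf5 and Hnrnph3 are higher on all 3 differentiated arrays and the groups of Hnrnph2 overlap.

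Tra2a and Tra2b, relatives of the SR proteins that bind purine-rich enhancers and act with them, were both lower. Tra2b had signals of 2745, 2424 and 3349 against 1430, 1556 and 1148, a log2 change of -1.03 (SE 0.14, adjusted p = 0.00019). A second bright probe set of Tra2b was at -1.04 (adjusted p = 2.5e-05), and its 3 others were dim and did not pass. Tra2a was at 541, 585 and 771 against 374, 441 and 366, a log2 change of -0.65 (SE 0.15, adjusted p = 0.011). The fall of Tra2a did not pass without proliferating replicate 3 (-0.50) or differentiated replicate 1 (-0.62).

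All 4 factors that read the 3′ splice site and the branch point were lower, with a median log2 change of -0.51. U2af2, the large U2AF subunit that binds the polypyrimidine tract, was at 1242, 1223 and 1270 in proliferating cells and at 726, 913 and 756 in differentiated cells. Its log2 change was -0.64 (SE 0.11, adjusted p = 0.0015), the only one of the 4 to reach 1.5-fold. U2af1, the small subunit that contacts the AG at the intron end, changed by -0.51 (SE 0.13, adjusted p = 0.020). Sf3b1, the U2 snRNP protein at the branch point, changed by -0.50 (SE 0.15, adjusted p = 0.041), and Sf1, which binds the branch point first, by -0.43 (SE 0.10, adjusted p = 0.012). In all 4 genes the groups did not overlap. The calls of the last 3 were each lost in some fits with 1 array left out, in which 1 group has only 2 arrays. U2af1 did not pass without proliferating replicate 2 (-0.38) or differentiated replicate 1 (-0.48) or 2 (-0.44), and Sf1 did not pass without proliferating replicate 3 (-0.40) or differentiated replicate 2 (-0.43). The probe set of Sf1 is an _s_at design, and with those left out Sf1 was at -0.41 (adjusted p = 0.13). Sf3b1 did not pass without proliferating replicate 1 (-0.34) or 3 (-0.52), or without differentiated replicate 1 (-0.57), 2 (-0.54) or 3 (-0.39). Its fall was larger than in the main fit without proliferating replicate 3 or differentiated replicate 1 or 2, so these losses do not single out an array.

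Among the 19 hnRNPs, 15 were lower, 1 was higher and 3 did not pass, with a median log2 change of -0.53. Hnrnpd (AUF1), which binds AU-rich elements and takes part in mRNA decay, had the largest fitted change of these. Its signals were 2148, 2427 and 2128 in proliferating cells and 754, 757 and 875 in differentiated cells, a log2 change of -1.47 (SE 0.10, adjusted p = 7.6e-07), or 2.78-fold lower. The call of Hnrnpd rests on 1 of 3 probe sets. A much dimmer probe set, above background on all 6 arrays, was at 0.32 (adjusted p = 0.59), and the last was at background. Hnrnpm was at 1129, 961 and 1106 against 516, 465 and 563, a log2 change of -1.03 (SE 0.12, adjusted p = 5.4e-05 by limma). All such values are by limma unless another test is named. Hnrnpa2b1, which encodes hnRNP A2/B1, a core particle protein and partner of hnRNP A1, went from 5042, 4845 and 5321 to 2126, 2743 and 2610. Its log2 change was -1.03 (SE 0.11, adjusted p = 2.9e-05), and in all 3 genes the groups were far apart.

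Hnrnpab, of the same A/B group as Hnrnpd, had signals of 6972, 8101 and 7487 against 3982, 3976 and 4050, a log2 change of -0.90 (SE 0.09, adjusted p = 2.7e-05). Hnrnpu, a large nuclear matrix protein also known as SAF-A, was at 5767, 5404 and 5188 against 3011, 2953 and 2992, a log2 change of -0.86 (SE 0.09). Hnrnpll, a relative of hnRNP L, was at 1981, 1932 and 1976 against 1101, 1081 and 1088, a log2 change of -0.84 (SE 0.09). That probe set of Hnrnpll is an _s_at design, and the only other one was at -0.39 and did not pass (adjusted p = 0.076). In Hnrnpab, Hnrnpu and Hnrnpll the differentiated arrays were close together and did not overlap with the proliferating arrays. Hnrnph1, which binds G-runs, was at 2482, 1899 and 1961 against 1060, 1183 and 1363 (log2 change -0.80, SE 0.13). Hnrnpf, its close relative, was at 4251, 3912 and 4366 against 2802, 2592 and 2734 (log2 change -0.62, SE 0.09). The differentiated arrays of both were again below all proliferating arrays.

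The other 7 lower hnRNPs changed by less than 1.5-fold. Hnrnpc, a core particle protein that binds uridine tracts, was at -0.58 (SE 0.09, adjusted p = 0.00098), and Hnrnpk, which binds cytidine-rich tracts, was at -0.53 (SE 0.12, adjusted p = 0.0093). A probe set of Hnrnpk almost as bright was at -0.30 and did not pass (adjusted p = 0.10). Another passed at -0.57 (adjusted p = 0.0014), and the dimmest was at -0.0018. Hnrnpa1, the best known splicing repressor of the family, had signals of 2610, 2373 and 2066 against 1576, 1566 and 1762, a log2 change of -0.51 (SE 0.11, adjusted p = 0.0054). That probe set is of the cross-hybridizing kind, and the next one of Hnrnpa1, at 1026, 983 and 980 against 946, 1138 and 1103, had overlapping groups and a change of 0.09 (adjusted p = 0.71). A further 3 probe sets of Hnrnpa1 are shared with related gene copies and were not used here. The remaining falls were at -0.46 for Hnrnpr, -0.44 for Hnrnpdl, -0.40 for Hnrnpa0 and -0.39 for Hnrnpl. Hnrnpk did not pass without differentiated replicate 2 (-0.46). Hnrnpa0 passed without differentiated replicate 2, but not when proliferating replicate 1 (-0.40), 2 (-0.41) or 3 (-0.38) was left out, nor when differentiated replicate 1 (-0.44) or 3 (-0.28) was. Hnrnpl did not pass without proliferating replicate 2 (-0.30) or differentiated replicate 1 (-0.41), 2 (-0.38) or 3 (-0.36), and Hnrnpr did not with proliferating replicate 1 (-0.41) or 3 (-0.35) left out, nor with differentiated replicate 1 (-0.49), 2 (-0.44) or 3 (-0.43) left out.

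Hnrnph3, a relative of hnRNP H1 and F, was the one gene called higher. It was at 302, 330 and 327 in proliferating cells and at 449, 495 and 417 in differentiated cells, a log2 change of 0.48 (SE 0.14, adjusted p = 0.034). All 3 differentiated arrays were above the proliferating ones, by less than 1.5-fold. The call was lost without proliferating replicate 1 (0.45), 2 (0.51) or 3 (0.50) and without differentiated replicate 1 (0.49) or 2 (0.42). Hnrnph2, the X-linked relative of Hnrnph1, was at 797, 527 and 648 against 763, 716 and 847, with overlapping groups and a change of 0.25 (SE 0.15, adjusted p = 0.36). Within the H/F group, Hnrnph1 and Hnrnpf were thus called lower and Hnrnph3 higher, and the difference between the genes was not tested. Hnrnpul1, related to hnRNP U, did not pass at -0.33 (SE 0.13, adjusted p = 0.14).

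Several probe sets per gene gave a check of the calls within the same arrays, although they are not replicates. Of 24 genes with more than 1 probe set, 23 had at least 1 lower probe set and 11 had at least 2, while 2 had a higher one. Of all 9010 genes with more than 1 probe set, 14.2% had at least 1 lower, 5.62% at least 2 lower and 14.9% at least 1 higher, and genes with more probe sets have more occasions for a call. Over all 113 probe sets, 51 were lower and 3 higher, against 6.43% and 6.14% of all probe sets on the array. The 51 lower ones were all among the 95 probe sets above background on all 6 arrays, where 14.7% of such probe sets on the array were lower. Srsf1 had 5 lower probe sets of 7, with log2 changes from -1.55 to -0.98, Srsf3 had 4 of 6, from -1.20 to -0.88, and Srsf2 had 3 of 4, from -1.70 to -1.30. All 4 probe sets of Hnrnpf were lower, from -1.14 to -0.62. The 3 falling probe sets of Srsf2 end in _s_at, a design whose probes can match several transcripts, and the only other one, much dimmer, was at 0.29 (adjusted p = 0.52). Probe sets of a gene can lie in different transcript ends, and where these lie was not analysed here.

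In Hnrnpul2 and Hnrnpr a probe set called higher stood against a brighter one that fell. Other genes had probe sets above 0 that did not pass although above background on all 6 arrays, among them Sf3b1 (0.40), Hnrnpd (0.32) and Hnrnpu (0.23). For Hnrnpul2 the brighter probe set was at 476, 423 and 473 against 299, 436 and 272, a log2 change of -0.46 (SE 0.17, adjusted p = 0.13). Its groups overlapped through differentiated replicate 2, without which it passed, at -0.65 (adjusted p = 0.020). The other, nearly as bright, was at 227, 283 and 337 against 483, 532 and 457, and rose by 0.78 (SE 0.16, adjusted p = 0.0057). For Hnrnpr the brightest probe set fell from 1588, 1204 and 1716 to 1133, 1063 and 1047 (log2 change -0.46, SE 0.13, adjusted p = 0.032). Another was called higher from 24.1, 2.90 and 3.60 to 50.7, 43.2 and 72.6, with 1 of 6 arrays above background, so that no fold is read from it. In Hnrnpab, 1 probe set was at 386, 380 and 279 against 314, 201 and 2689, and differentiated replicate 3 alone was high. The other probe sets of Hnrnpab did not show this on that array.

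**Figure D3:**
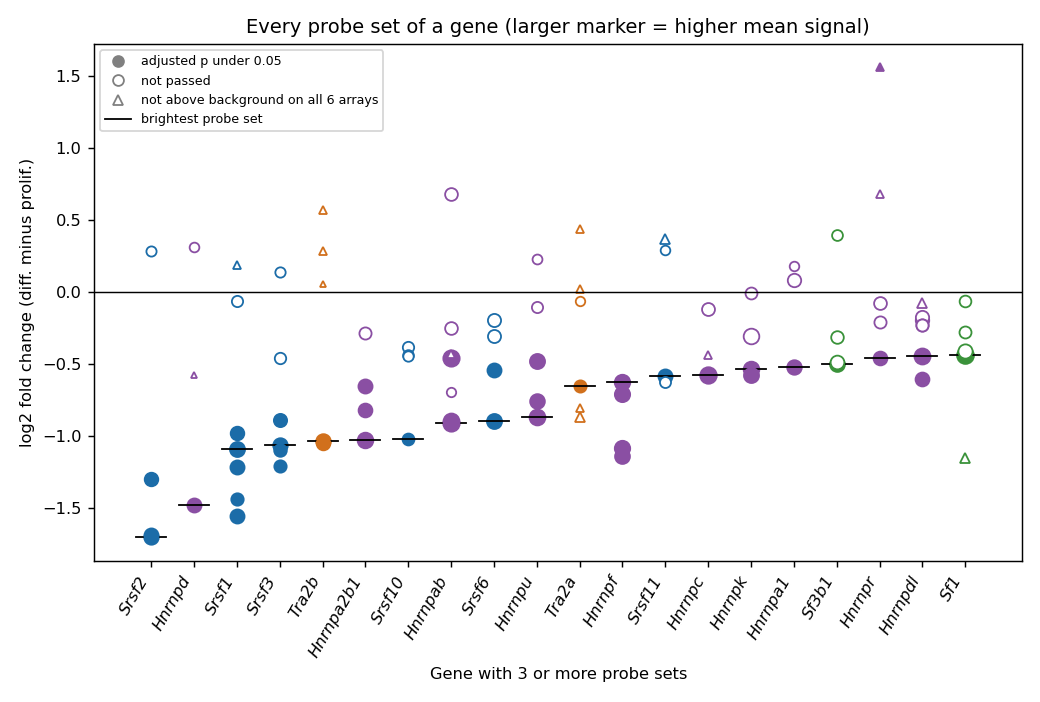
Log2 fold change (vertical axis, differentiated minus proliferating) of every probe set of the genes with 3 or more probe sets (horizontal axis), ordered by the brightest probe set, which a black line marks. Filled markers have an adjusted p under 0.05, open ones do not pass, and triangles were not above background on all 6 arrays. Most bright probe sets lie below 0, 5 of 7 for Srsf1 are filled, and markers above 0 are mostly small or open.

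Genes that act with the SR proteins and hnRNPs were taken from 5 lists. Of 83 listed genes with a probe set, 37 were lower, 4 were higher and 42 did not pass, with a median log2 change of -0.36. Of the 83 genes, 80 were above background on all 6 arrays. Over all genes of the array above background in this way, 16.0% were lower and 14.1% were higher, and the counts of each list are to be read beside these shares. Of 18 proteins of U1, U2 and the snRNP core, 14 were lower and none higher (median -0.65), led by Snrpa1 at -1.07, Snrpf at -1.03, Snrpg at -0.86 and Phf5a at -0.81. Of 21 proteins of the tri-snRNP and the catalytic spliceosome, 7 were lower (median -0.28), among them Prpf31 at -1.05, Eftud2 at -0.88, Snrnp40 at -0.85 and Prpf4 at -0.82. SR-related proteins, which carry arginine-serine repeats without being classical SR proteins, were lower in 5 of 16 cases (median -0.34), with U2surp at -0.65, Srrm1 at -0.57, Acin1 at -0.56 and Rnps1 at -0.54.

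Proteins that belong to hnRNP particles under other names had 8 lower and 1 higher of 15 (median -0.66). Rbmx (hnRNP G) went from 642 ± 75.4 to 119 ± 3.46 (SD, n = 3 each), which is a log2 change of -2.28 (SE 0.16, adjusted p = 8.1e-07). Ptbp1 (hnRNP I), the polypyrimidine tract binding protein that represses muscle and neuronal exons, went from 3374 ± 214 to 1145 ± 68.2 (SD, n = 3 each), which is a log2 change of -1.55 (SE 0.09, adjusted p = 2.2e-07). Its paralog Ptbp2 was at 541 ± 54.1 and 604 ± 31.7 (SD, n = 3 each) and did not pass (log2 change 0.16, adjusted p = 0.52). Khdrbs1 (Sam68) changed by -1.07 and Tardbp (TDP-43) by -1.01. The single rise in this list was that of Cirbp, the cold-inducible RNA-binding protein, at 0.81 (adjusted p = 0.00030).

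The kinases and carriers of SR proteins moved in both directions, with 3 higher, 3 lower and 7 not passing of 13 (median 0.03). Srpk1, the cytoplasmic kinase that phosphorylates arginine-serine tails before nuclear import, fell from 924 ± 128 to 450 ± 105 (SD, n = 3 each), which is a log2 change of -1.03 (SE 0.17, adjusted p = 0.0010). Srpk3, its muscle-specific relative and a known target of MEF2, rose from 18.9, 63.2 and 72.8 to 354, 337 and 401 (adjusted p = 0.00019). Its proliferating signal was above background on 2 of 3 arrays, and with the other set to the background limit the differentiated level was at least 4.26-fold higher. That probe set of Srpk3 is an _s_at design, whose probes can match several transcripts. With _s_at and _x_at probe sets left out, 3 related splicing genes were higher instead of 4. Srpk2 was at 0.49 and did not pass (adjusted p = 0.078). Clk1, a nuclear kinase of SR proteins, rose by 0.63 (SE 0.11, adjusted p = 0.0016) and Dyrk1a by 0.46 (adjusted p = 0.045). The phosphatase subunit Ppp1ca changed by -0.78 and the arginine methyltransferase Prmt1, which modifies hnRNPs, by -0.60, while the import receptor Tnpo3 was at -0.32 (adjusted p = 0.15).

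**Figure D4:**
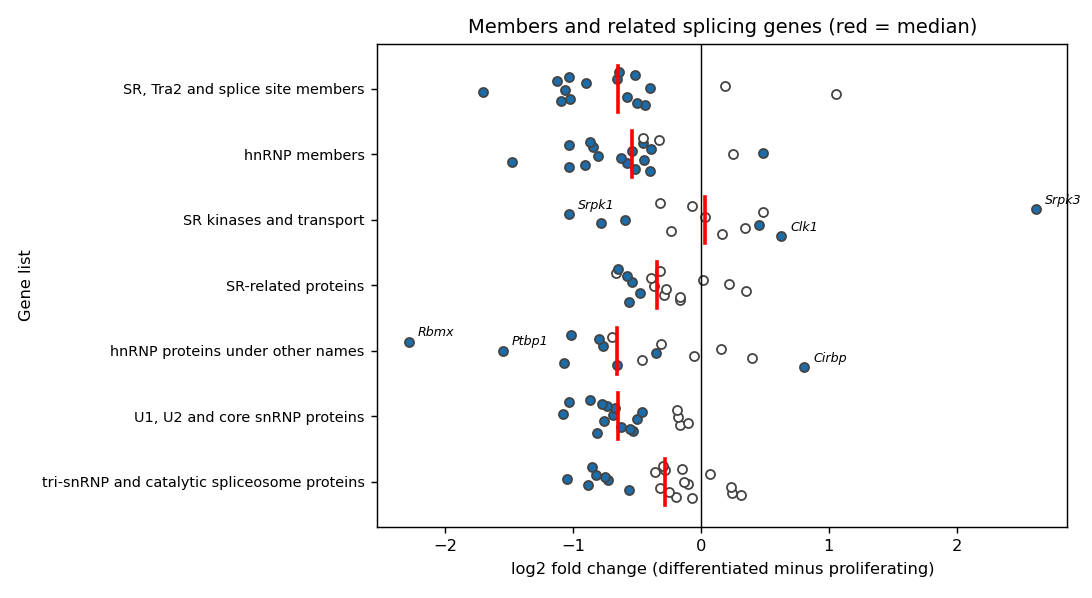
Differentiated minus proliferating signal on the log2 scale (horizontal axis, 3 arrays in each group) for the 16 SR, Tra2 and splice site genes, the 19 hnRNPs and the members of 5 lists of related splicing genes (vertical axis). A filled circle stands for an adjusted p under 0.05, an open one for a gene that did not pass, and a red line for the median of a list, at 0.03 for the SR kinases and transport list and below 0 for all others. Rbmx stands at -2.28, and Srpk3, farthest right, is drawn at its fitted value although 1 of its 3 proliferating arrays was not above background.

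The promoters of these genes were read because so many of their transcripts fell together. RefSeq promoters (build GRCm38.p6, 250 bases before to 50 after each annotated start) were given for 32 of the 35 genes, and Hnrnpll, Hnrnpul2 and U2af2 were the others. Below are those of Srsf2 and Hnrnpd, which had the largest fitted falls among the SR proteins and the hnRNPs, of Srsf1, with the most lower probe sets, and of Hnrnph3, the one gene called higher. They are written 5′ to 3′ on the strand of the gene, at chr11:116853045-116853344 (minus strand) for Srsf2, chr11:88047123-88047422 (plus strand) for Srsf1, chr5:99978889-99979188 (minus strand) for Hnrnpd and chr10:63023800-63024099 (minus strand) for Hnrnph3. Capitals mark matches on either strand to CACGTG (the E-box of Myc and Max), TTCCCGC (a form of the E2F site), CCGGAAG (a form of the ETS site), CCAAT (the box of NF-Y) and GGGCGG (the GC box of Sp1), and matches may overlap.
Srsf2: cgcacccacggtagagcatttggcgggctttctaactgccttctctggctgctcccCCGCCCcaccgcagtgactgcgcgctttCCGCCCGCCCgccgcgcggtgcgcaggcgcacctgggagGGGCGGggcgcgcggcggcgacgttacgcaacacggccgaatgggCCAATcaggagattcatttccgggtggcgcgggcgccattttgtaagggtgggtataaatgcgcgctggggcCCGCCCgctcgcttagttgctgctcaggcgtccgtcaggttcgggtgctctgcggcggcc
Srsf1: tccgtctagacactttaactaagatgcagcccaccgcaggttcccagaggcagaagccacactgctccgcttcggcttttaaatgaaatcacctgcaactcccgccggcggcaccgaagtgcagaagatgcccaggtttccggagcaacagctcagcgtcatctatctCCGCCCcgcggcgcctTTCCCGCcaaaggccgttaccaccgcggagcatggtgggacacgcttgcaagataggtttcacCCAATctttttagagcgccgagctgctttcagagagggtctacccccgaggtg
Hnrnpd: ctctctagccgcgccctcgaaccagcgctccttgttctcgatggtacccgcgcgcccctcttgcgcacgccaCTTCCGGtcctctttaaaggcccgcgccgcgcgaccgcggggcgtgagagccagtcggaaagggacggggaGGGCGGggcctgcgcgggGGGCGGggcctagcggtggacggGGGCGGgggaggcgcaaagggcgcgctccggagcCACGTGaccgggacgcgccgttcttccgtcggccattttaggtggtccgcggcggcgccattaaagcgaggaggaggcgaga
Hnrnph3: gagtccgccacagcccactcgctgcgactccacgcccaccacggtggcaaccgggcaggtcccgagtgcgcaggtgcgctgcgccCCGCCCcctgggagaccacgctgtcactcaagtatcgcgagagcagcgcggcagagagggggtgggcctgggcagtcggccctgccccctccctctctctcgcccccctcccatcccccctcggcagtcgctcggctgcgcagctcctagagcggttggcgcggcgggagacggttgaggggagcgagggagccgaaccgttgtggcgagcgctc

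The GC box was found in 84.4% of the 32 genes and in 71.8% of 7619 genes above background on all 6 arrays that have a promoter in the same table. The CCAAT box was found in 59.4% and 42.9%, and the E2F form in 28.1% and 9.91%. The E-box was found in 12.5% and 12.4%, and the ETS form in 15.6% and 21.8%. The 9 genes with the E2F form were Hnrnpa2b1, Hnrnpf, Hnrnpr, Hnrnpul1, Srsf1, Srsf10, Srsf4, Tra2b and U2af1, of which Hnrnpul1 was not called lower. As 29 of all 35 genes were lower, most genes without the form were lower too, among them Srsf2 and Hnrnpd. A link between the form and the fall was not tested. Srsf2 and Srsf1 hold both a CCAAT and a GC box, Srsf1 also the E2F form, Hnrnpd the E-box, the ETS form and GC boxes, and Hnrnph3 a GC box alone. A gene was counted if any of its promoters held a match, and a gene with more promoters has more occasions for one. The 32 genes have 45 promoters, and the genes above background have 9813. The median GC content was 67.3% over the 45 promoters of these genes and 61.3% over those of the genes above background. The part of GC content and of promoter number in the shares was not tested. A match to these letters is a description of the sequence and not a bound site.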

How the data were processed

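RNA of C2C12 cells was measured on 6 Affymetrix arrays, 3 of proliferating and 3 of differentiated cells, grouped by their titles. The authors deposited linear intensity values from MAS 5.0, which had scaled each array to a trimmed mean of about 250. The methods apply GCRMA and a Bayesian regularized test afterwards, and GCRMA, which needs probe-level data, was not repeated here.

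After 64 control probe sets were left out, log2(signal + 15) of 45037 probe sets was tested in R 4.3.3 by the 2-sided moderated test of limma 3.58.1, whose eBayes step used a trend, with Benjamini-Hochberg adjustment over all of them. Genes are named by the platform annotation, in which 34945 probe sets have 1 gene, 932 have several and 9160 are unnamed. A gene was represented by its probe set with the highest mean signal over all 6 arrays. Signals on each array are given for genes that passed with at least 1.5-fold change and for Srsf1, Srsf2, Srsf3, Hnrnpa1, Hnrnpa2b1 and U2af2. They are also given for genes with a passing probe set opposed to another of the same gene. Up to 4 passing genes with the largest change are named from each related list, with Srpk3, Ptbp1 and Ptbp2. Other genes named, the background limit, the motifs and the promoters printed were chosen after values were seen. Members and lists were chosen with earlier results of these data known. Of 87 listed splicing genes 83 have a probe set of their own.

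Alternatives changed the normalization, pseudocount, dim probe sets, variance model, test, pairing, arrays, probe sets and thresholds. The fit was also run on simulated data whose spread followed the mean signal, as the trend assumes. That run therefore cannot judge the variance model, and no result here rests on it. Groups of 3 arrays limit the precision, and an exact permutation p cannot go below 0.1. Python 3.11.15, pandas 2.3.3 and numpy 2.4.6 served for all other steps.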

Additional observations from a re-analysis of the deposited data

How the results depend on the processing

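The direction of all 29 lower genes was kept under every normalization, pseudocount, test and array left out, while the number called changed. The size of a fall also moved with the normalization. Hnrnpc was at -0.45 with quantile normalization and -0.63 with scaling by the 75th percentile, against -0.58 in the main test. Hnrnpab was at -0.77 and -0.96, against -0.90. Of all probe sets, 2765 were higher and 2894 lower in the main test, and 1367 and 1302 with eBayes without trend, which also left 13 genes of both families lower and 0 higher, and 12 related splicing genes lower and 2 higher. With all probe sets of a gene averaged 18 genes were lower, and with a change of at least 1.5-fold required 17 were lower and 0 higher. The single higher gene became 0 with the regularized test, the replicate block or scaling by the 75th percentile. It became 2 with no pseudocount, with quantile normalization or at an unadjusted p under 0.05, where related splicing genes called higher went from 4 to 7. With 1 array left out, 0 to 2 genes were higher and 22 to 26 were lower. The sign changed for Hnrnpa1 (0.087) and Srsf2 (0.29) with _s_at and _x_at probe sets left out, and for Hnrnpr (0.30) and Hnrnpul2 (0.16) with all probe sets averaged, since other probe sets then stand for the gene. None of these 4 values passed. The labels do not say whether same-numbered arrays of both groups belong together. Correlations of their deviations were 0.02 to 0.05, against -0.03 to 0.01 for arrays of different number, all of them small. The replicate block left 28 genes lower, ending the calls of Srsf4 (adjusted p = 0.073) and Hnrnph3 (adjusted p = 0.06). The cause of the other changes was not tested. Dim probe sets, whose signal is near the bacterial controls, limit what can be said of Srsf12 and of the minor probe sets.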
